A study of Mus musculus with 13 samples.

Results

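The 10 genes described here encode immediate-early transcription factors and regulators: the FOS family members Fos, Fosb, Fosl1 and Fosl2, the JUN family members Jun, Junb and Jund, the zinc finger factor Egr1, and the immediate-early response genes Ier2 and Ier3. They were chosen by symbol among the 22406 symbols of the gene tables, and each symbol was found in every library. The libraries hold ribosome footprints of mouse embryonic fibroblasts (MEFs) that were PERK WT or PERK-/- and of NIH3T3 cells, a mouse fibroblast line. MEFs were left untreated (control) or given 1 µM thapsigargin (Tg), an inhibitor of the ER calcium pump, for 1, 2, 5 or 8 h, and NIH3T3 cells were left untreated or given 0.2 µM Tg for 2 or 7 h. Every condition (13 in all) is represented by 1 library, so differences have no replicate check and no test between conditions was made. The 5 PERK-/- libraries came from knockout MEFs that lack the ER stress kinase PERK, the 5 WT libraries from MEFs with intact PERK, and the 3 NIH3T3 libraries from cells with intact PERK. All cells were detached with trypsin, pelleted and frozen with no cycloheximide.

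Immediate-early genes are transcribed within minutes of a stimulus from factors already present in the cell, and their mRNAs and proteins are short-lived. FOS and JUN proteins pair through leucine zippers into the dimeric factor AP-1, which binds the letters TGACTCA. FOS proteins need a JUN partner to bind DNA, whereas JUN proteins also pair with each other. EGR1 binds GC-rich sites, IER2 is a nuclear regulator and IER3 a regulator of cell survival. In fibroblasts, serum and stress raise these genes through MAP kinases and the serum response factor SRF.

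The coding bases that the families share most closely are shown because footprints of near-identical genes could be assigned to the wrong member. For each family a stretch of 60 coding bases was taken where the members were most alike. Capitals mark bases shared by all members of the family, and coordinates are those of mm10.
Fos, chr12:85475626-85475685, + strand: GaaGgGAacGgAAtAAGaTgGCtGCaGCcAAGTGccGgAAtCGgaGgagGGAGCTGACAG
Fosb, chr7:19306573-19306632, - strand: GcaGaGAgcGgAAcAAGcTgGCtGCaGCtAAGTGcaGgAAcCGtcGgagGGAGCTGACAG
Fosl1, chr19:5454447-5454506, + strand: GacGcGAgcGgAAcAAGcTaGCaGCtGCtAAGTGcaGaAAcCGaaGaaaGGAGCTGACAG
Fosl2, chr5:32150455-32150514, + strand: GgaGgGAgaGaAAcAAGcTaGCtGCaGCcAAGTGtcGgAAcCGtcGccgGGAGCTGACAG
Jun, chr4:95050411-95050470, - strand: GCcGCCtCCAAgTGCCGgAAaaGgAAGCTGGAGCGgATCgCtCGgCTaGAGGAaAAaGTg
Junb, chr8:84977539-84977598, - strand: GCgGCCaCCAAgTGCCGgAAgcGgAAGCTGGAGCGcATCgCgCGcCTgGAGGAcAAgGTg
Jund, chr8:70699880-70699939, + strand: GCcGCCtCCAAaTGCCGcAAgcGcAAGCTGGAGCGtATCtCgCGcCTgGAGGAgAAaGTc

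The 4 FOS genes shared 39 of these 60 bases and the 3 JUN genes 45, and in both families the longest run shared by all members was 11 bases. Footprints were 22 to 34 nt long. No stretch of 28 or 34 bases in the coding sequence of a member, clipped by 30 nt at each end, was found in the coding sequence of another gene, on either strand. At 22 bases, 2 stretches of Jun and 2 of Egr1 were found elsewhere, none of them in another member. The gene models of Fosl1, Jun, Junb and Jund overlap Ccdc85b, Junos, Prdx2 and Gm11175, but no coding sequence of another gene overlaps a coding sequence of the members. Whether the counting used strand is not given in the sources used here.

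Coding GC content was high throughout the group. Its median was 62.1% against 52.8% over expressed genes, and every member lay above the 82nd percentile, from 82.2 for Egr1 to 99.6 for Jund. Jun, Junb, Jund and Ier2 have a single coding exon, which is 40% of the members against 5.28% of expressed genes. Promoter sequences (250 bases before to 50 after the start site, RefSeq GRCm38.p6) were at hand for 7 members, and not for Fosl1, Egr1 and Ier2. Neither the AP-1 letters TGACTCA nor TGACGTCA nor a CArG box, the site of SRF, was in any of the 7 on either strand, against 5.20%, 1.79% and 1.63% of all 32851 promoters. Sites outside these windows or with other letters were not looked for. The window given for Jund (chr8:70697489-70697788) ends before the start of its gene model (chr8:70698949-70700616) and so does not cover that start. That of Fosl2 (chr5:32136222-32136521) lies inside its gene model (chr5:32135801-32157842) and does not cover the start of that model either. The letters GCGGGGGCG, which EGR1 binds, were in 2 of the 7 against 2.91% of all promoters. They are shown in capitals in windows of 30 bases. They begin 50 bases (Fosb) and 79 bases (Fosl2) before the start site on which the promoter sequence is set. For Fosl2 that site and the match lie within the gene model.
Fosb, chr7:19310076-19310105, - strand: tgacgcaagcGCGGGGGCGggtcccggagg
Fosl2, chr5:32136383-32136412, + strand: ccggctgcgcGCGGGGGCGgaagggcgcgc
A match describes these letters only, and footprints do not measure binding.

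Library totals ran from 2525029 expected counts (WT after 2 h) to 14799515 (PERK-/- after 2 h). Levels are given in TPM, a share of all footprints of a library per length of coding sequence, so a change is relative to the other genes, also where fewer ribosomes translate in all, as the study describes for WT MEFs under Tg. Changes of mRNA level and of translation cannot be told apart, nor can fewer cells of a type from less RNA per cell. Eif2ak3, the gene of PERK, checks the genotype labels. Its share of the library total (CPM) was 21.3, 14.4, 19.0, 33.3 and 32.7 in the WT control and at 1, 2, 5 and 8 h, and 11.0, 8.99, 7.64, 13.2 and 19.1 in PERK-/- MEFs. The PERK-/- CPM was the lower in each pair of libraries but well above 0. Its TPM did not separate the genotypes, with 6.03, 8.49, 6.20, 14.0 and 15.7 in WT and 11.2, 7.32, 5.21, 14.9 and 17.2 in PERK-/- MEFs. Which part of the gene the allele lacks is not given in the sources used here. Atf4, whose translation rises when PERK phosphorylates eIF2alpha, had 34.5 TPM in the WT control and 487 to 576 in the WT Tg libraries, against 25.1 to 60.2 in the 5 PERK-/- libraries. The 10 fibroblast markers summed to between 4782 and 9641 TPM in every library, and the epithelial, endothelial and leukocyte markers to at most 21.0, 5.14 and 4.80 TPM.

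For changes, TPM values under 4 were raised to 4, genes averaging 2 TPM or more over a table were called expressed (10432 in MEFs and 10117 in NIH3T3 cells), and a gene was called at a 2-fold change from the control of its own cells. All 10 members were expressed in MEFs and 9 in NIH3T3 cells, where Fosb was under the limit. The intervals given after log2 changes of expected counts per library total are exact 95% intervals (Clopper-Pearson) of counting error alone.

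Under Tg most members were up early in WT MEFs, and from 2 h on members were down in PERK-/- MEFs. In WT MEFs 7 of 10 members were at least 2-fold up after 1 h (4.33% of expressed genes were) and 6 after 2 h (5.66%), with none down (2.29% and 4.01%). At 5 h 2 were up (5.86%) and 1 down (3.55%), and after 8 h 3 were up (6.45%) and none down (3.87%). With the trend of change on coding GC content removed, 0 were up and 2 down at both of these times. The shares of expressed genes with that trend removed are not given here, so these counts have no background beside them. In PERK-/- MEFs no member was 2-fold up at any time (0.719%, 0.623%, 3.26% and 3.28% of expressed genes were up at 1, 2, 5 and 8 h). There 1 member was down after 1 h (3.38%), 6 after 2 h (5.78%), 5 after 5 h (4.77%) and 3 after 8 h (2.73%).

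The median log2 change of the members was 1.42 after 1 h, 1.10 after 2 h, 0.12 after 5 h and 0.14 after 8 h in WT MEFs. The PERK-/- medians were -0.30, -1.30, -0.75 and -0.54. Medians over all expressed genes lay between -0.11 and 0.04. The WT median was thus highest early and closer to that of all genes from 5 h on, whereas the PERK-/- median was lowest after 2 h. The members were divided in WT at 5 and 8 h, where 5 had count intervals above 0 and 4 below. The share of all expressed genes with such intervals was not computed. With a limit of 5 TPM on the mean, the WT medians at 5 and 8 h were 0.43 and 0.53. Summed over the 10 members, the WT level went from 443 TPM in the control to 1205.5 after 1 h, 843 after 2 h, 490 after 5 h and 528 after 8 h. The PERK-/- sum went from 478 to 378, 170, 206 and 283 TPM.

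**Figure D1:**
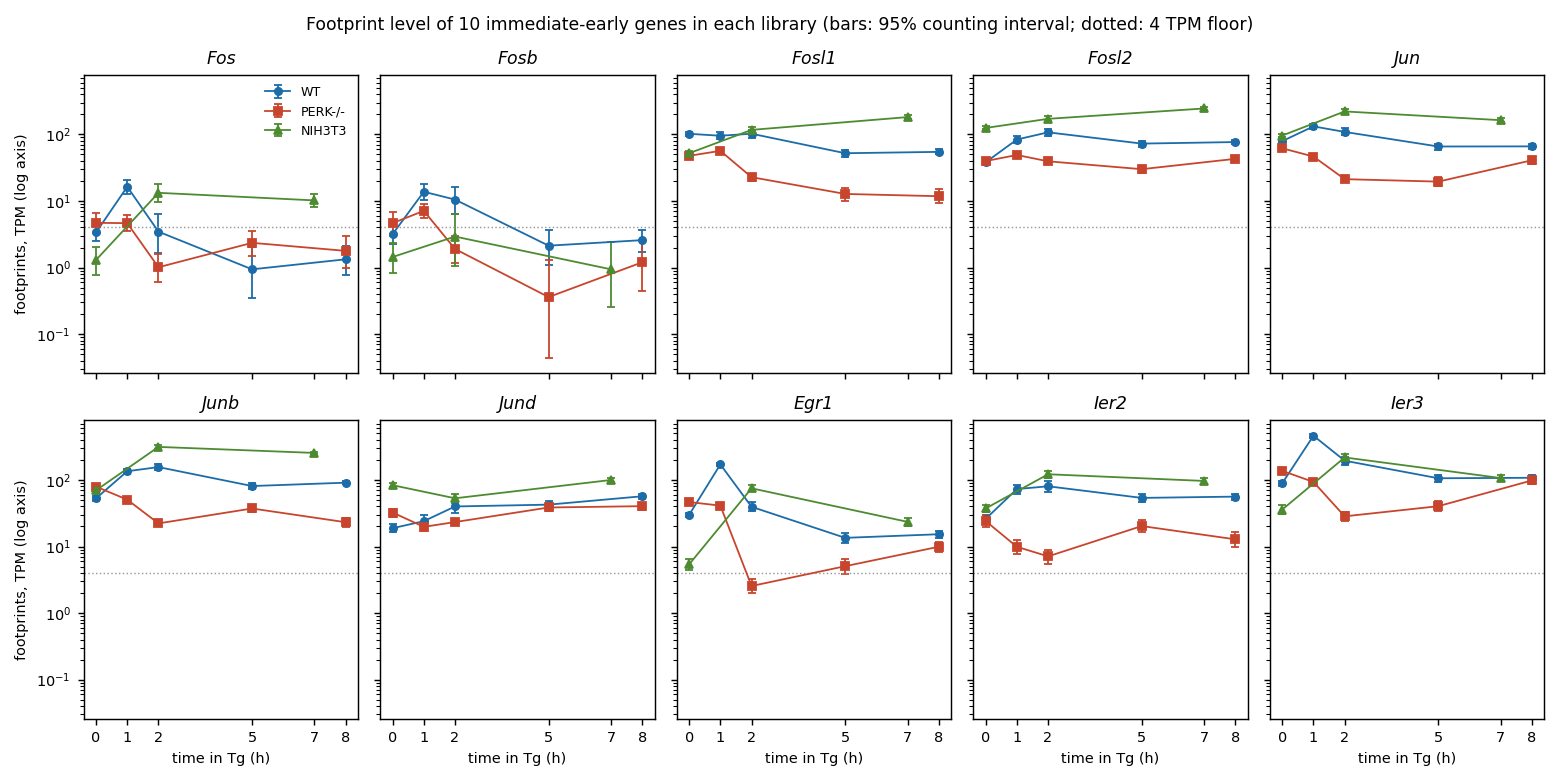
Footprint level in TPM (log axis) of each of the 10 genes against time in Tg (h), 1 point per library, for WT MEFs (circles), PERK-/- MEFs (squares) and NIH3T3 cells (triangles). Bars are 95% counting intervals and the dotted line is the floor of 4 TPM. Egr1 and Ier3 peak after 1 h in WT (171 and 461 TPM), while Egr1 reaches 2.55 TPM in PERK-/- after 2 h.

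**Figure D2:**
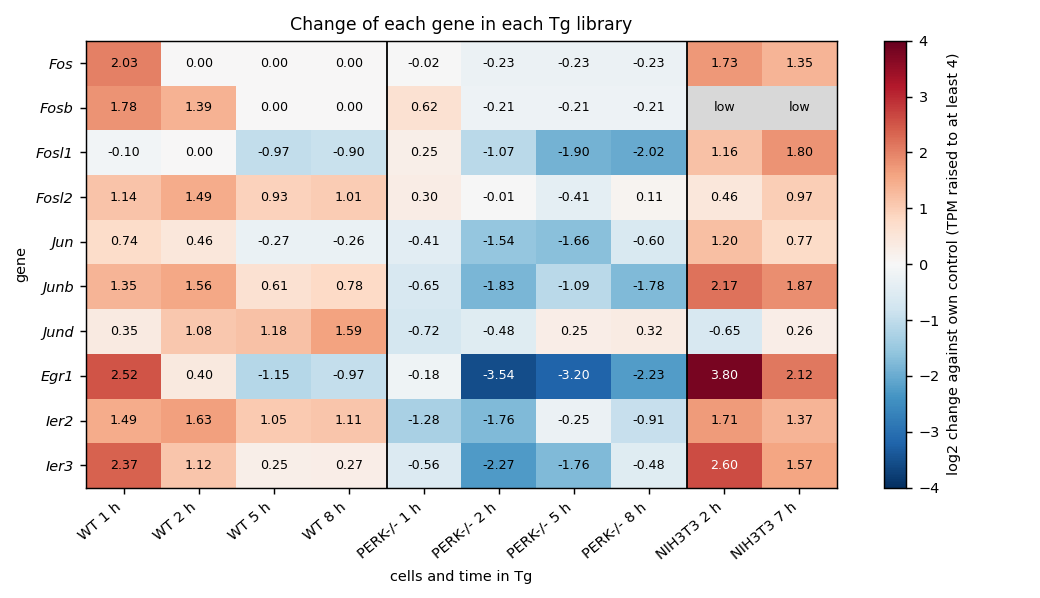
Log2 change of each gene (lines) in each of the 10 Tg libraries (columns) against the control of the same cells, with TPM raised to at least 4. Red is up, blue is down and grey is not expressed. The 2-fold limit is 1 or -1 on this scale, and Egr1 spans -3.54 (PERK-/- after 2 h) to 3.80 (NIH3T3 after 2 h).

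Egr1, the zinc finger factor of the group (chr18:34859823-34864984, + strand, 2 coding exons), had the widest range of floored log2 changes over the 10 Tg libraries, -3.54 to 3.80. Without the floor, the highest over the lowest TPM was greater for Fos than for Egr1 in WT MEFs (17.4 against 12.7), and greater for Fosb in PERK-/- MEFs (19.8 against 18.3), where Fos had 6 to 68 counts a library and Fosb 2 to 66. Its level in WT MEFs was 29.9 TPM in the control, 171 after 1 h, 39.5 after 2 h, 13.5 after 5 h and 15.3 after 8 h. The PERK-/- levels were 46.6, 41.1, 2.55, 5.06 and 9.92 TPM. The WT values form a peak after 1 h that had mostly gone by 2 h. Egr1 was then still 1.32-fold above the control (log2 of counts 0.41, 0.15 to 0.66), and it was below the control at 5 and 8 h. The PERK-/- values were near the control after 1 h and far below it later.

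At 1 h in WT Egr1 was 5.72-fold up (log2 change of counts 2.53, 2.38 to 2.68), rank 24 of 10432 expressed genes. At 2 h in PERK-/- it was 11.6-fold down with the floor, and the log2 change of counts was -4.11 (-4.51 to -3.74) on 65 counts against 512 in the control. Its rank there was 10431 of 10432. It was the 1 member called down in WT after 5 h (2.22-fold), and in PERK-/- it was 9.20-fold down after 5 h and 4.69-fold after 8 h. Between 1 h and 2 h alone it lost 4.33-fold in WT and 10.3-fold with the floor in PERK-/- MEFs.

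Ier3, a short gene (chr17:35821684-35822923, + strand) with 480 coding bases whose protein regulates cell survival, had the highest TPM of the 10 members in 8 of the 10 MEF libraries. In WT MEFs its level was 89.2, 461, 194.5, 106 and 108 TPM in the control and at 1, 2, 5 and 8 h. The PERK-/- libraries had 137, 93.2, 28.4, 40.3 and 98.3 TPM. All 4 WT values under Tg were above their control and all 4 PERK-/- values below theirs. The WT change after 1 h was 5.17-fold (log2 of counts 2.38, 2.21 to 2.56) and after 2 h 2.18-fold (log2 change 0.81 with the GC trend removed). Without PERK Ier3 was 4.82-fold down after 2 h (log2 of counts -2.20, -2.45 to -1.94) and 3.40-fold after 5 h, and by 8 h it had come back to 1.39-fold below the control.

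Ier2, the nuclear regulator (chr8:84661331-84662852, - strand), was the only member at least 2-fold up at all 4 times in WT MEFs. It had 26.0, 73.0, 80.3, 53.7 and 56.2 TPM there, and 24.1, 9.89, 7.11, 20.3 and 12.8 TPM in PERK-/- MEFs. The controls differed by less than counting error, and under Tg every WT value was above every PERK-/- value. In WT it was 2.81-fold up after 1 h (log2 of counts 1.5, 1.19 to 1.81), 3.09-fold after 2 h, 2.06-fold after 5 h and 2.16-fold after 8 h. The late calls were the less firm, since the log2 change after 5 h was 0.95 with TMM factors and those after 5 and 8 h were 0.58 and 0.57 with the trend of change on coding GC content removed. Without PERK it was 2.44-fold down after 1 h, the earliest 2-fold fall of any member (log2 change -0.98 with the GC trend removed), and 3.39-fold after 2 h (log2 of counts -1.69, -2.15 to -1.23). At 5 h the PERK-/- change was -0.21 (-0.62 to 0.20) on the log2 scale of counts, which counting error alone could give.

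Among the JUN genes, Junb, an AP-1 subunit that restrains growth in many settings, was 2-fold from its control in the most Tg libraries, 2 of WT, 3 of PERK-/- and 2 of NIH3T3 cells. Its level was 52.9, 135, 156, 81.0 and 91.0 TPM in WT and 79.3, 50.6, 22.2, 37.2 and 23.2 TPM in PERK-/- MEFs. The WT values stayed above their control throughout, and the PERK-/- values stayed below theirs. In WT it was 2.55-fold up after 1 h and 2.95-fold after 2 h (log2 of counts 1.57, 1.38 to 1.75). In PERK-/- it was 3.57-fold down after 2 h (-1.76, -1.96 to -1.56), 2.13-fold after 5 h and 3.42-fold after 8 h.

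Jun, the founding subunit of AP-1, stood at 79.3, 132, 109, 65.8 and 66.1 TPM in WT and at 61.9, 46.5, 21.3, 19.5 and 40.9 TPM in PERK-/- MEFs. Its WT rise stayed under the limit, with 1.67-fold after 1 h (log2 of counts 0.75, 0.59 to 0.91) and 1.37-fold after 2 h, and both late values were slightly below the control. In PERK-/- it was 2.91-fold down after 2 h (-1.46, -1.68 to -1.25) and 3.17-fold after 5 h (-1.63, -1.90 to -1.36).

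Jund, the JUN gene that resting cells already express, took another course. It had 18.8, 24.0, 39.9, 42.5 and 56.8 TPM in WT and 32.4, 19.7, 23.3, 38.6 and 40.4 TPM in PERK-/- MEFs. The WT levels were higher at each later time, and the PERK-/- levels dipped after 1 h and ended above the control. In WT it was 2.12-fold up after 2 h, 2.26-fold after 5 h and 3.02-fold after 8 h (log2 of counts 1.60, 1.38 to 1.83). Coding GC content is 70.7% for Jund, and with the GC trend removed the log2 changes were 0.51, 0.58 and 0.91, all under the limit. The call after 2 h was also lost with TMM factors (0.96). No PERK-/- value of Jund was 2-fold from its control.

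These courses altered the make-up of the JUN family. Jun held 52.5% of the JUN TPM in the WT control, Junb 35.0% and Jund 12.5%. At 2 h in WT Junb held 51.2%, and after 8 h Jund had 26.6% and Jun 30.9%. Without PERK, Jund went from 18.7% in the control to 34.9% after 2 h and 40.4% after 5 h, on a family sum that went from 174 to 66.8 and 95.3 TPM.

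Of the FOS genes, Fos and Fosb, the activating members, were scarce. Fos had 3.37, 16.4, 3.46, 0.94 and 1.33 TPM in WT and 4.70, 4.64, 1.01, 2.35 and 1.78 TPM in PERK-/- MEFs, on 6 to 68 expected counts a library. Among MEF libraries it was above 5 TPM only in WT after 1 h. There it was 4.09-fold up with the floor (log2 of counts 2.29, 1.73 to 2.86), and after 2 h it was back at its control (0.04, -1.11 to 1.05). In PERK-/- the change after 1 h was 0.01 (-0.62 to 0.66) and after 2 h -2.14 (-3.04 to -1.28), which the floor hides because both values were raised to or near 4 TPM.

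Fosb had 3.17, 13.8, 10.5, 2.13 and 2.58 TPM in WT and 4.64, 7.11, 1.90, 0.36 and 1.20 TPM in PERK-/- MEFs. It was high in WT at 1 and 2 h, with a smaller PERK-/- maximum after 1 h. The WT change was 3.44-fold after 1 h (log2 of counts 2.12, 1.49 to 2.77) and 2.63-fold after 2 h (1.32, 0.46 to 2.13). At 1 h in PERK-/- it was 1.53-fold (0.83, 0.14 to 1.55), the largest change upward of any member in those cells. At 5 h in PERK-/- there were 2 counts against 25 in the control, a log2 change of -3.90 (-7.02 to -1.89).

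Fosl1 and Fosl2 encode the FOS proteins without the strong activation domain of FOS, and they made up most of the family. Fosl1 had 102, 95.5, 102, 52.2 and 54.7 TPM in WT and 47.7, 56.6, 22.8, 12.8 and 11.8 TPM in PERK-/- MEFs. At no time was it 2-fold up in WT, and in both genotypes the late values were below the control. At 5 h in WT it was 1.96-fold down, just short of the limit (log2 of counts -0.97, -1.18 to -0.76). In PERK-/- it was 2.09-fold down after 2 h, 3.74-fold after 5 h and 4.04-fold after 8 h (-2.02, -2.43 to -1.64). The call after 2 h was lost on every scale of counts, where the log2 change of CPM was -0.99.

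Fosl2 had 38.1, 83.8, 107, 72.8 and 76.8 TPM in WT and 39.8, 49.1, 39.4, 30.03 and 42.9 TPM in PERK-/- MEFs. The controls differed by less than counting error, all WT values under Tg were at least 1.91-fold up, and no PERK-/- value was 2-fold away from its control. In WT it was 2.20-fold up after 1 h, 2.82-fold after 2 h (log2 of counts 1.5, 1.27 to 1.72) and 2.01-fold after 8 h. The call after 8 h was lost with TMM factors (log2 change 0.91), and with the GC trend removed the changes after 1 and 8 h were 0.96 and 0.58. In PERK-/- MEFs after 2 h the log2 change of counts was 0.06 (-0.15 to 0.28), while 6 other members were 2-fold down in that library.

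In MEFs Fosl1 and Fosl2 thus traded places. Fosl1 held 69.6% of the FOS TPM in the WT control and 40.4% after 8 h, and Fosl2 went from 26.0% to 56.7%. Without PERK, Fosl1 went from 49.3% to 20.4% and Fosl2 from 41.1% to 74.4%. NIH3T3 cells had the opposite course, with Fosl1 at 29.0%, 38.4% and 41.5% of the FOS TPM in the control and after 2 and 7 h, and Fosl2 at 69.5%, 56.3% and 56.0%. Fos and Fosb together never passed the share they had in WT after 1 h, where Fos was 7.81% and Fosb 6.57% of the family.

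**Figure D3:**
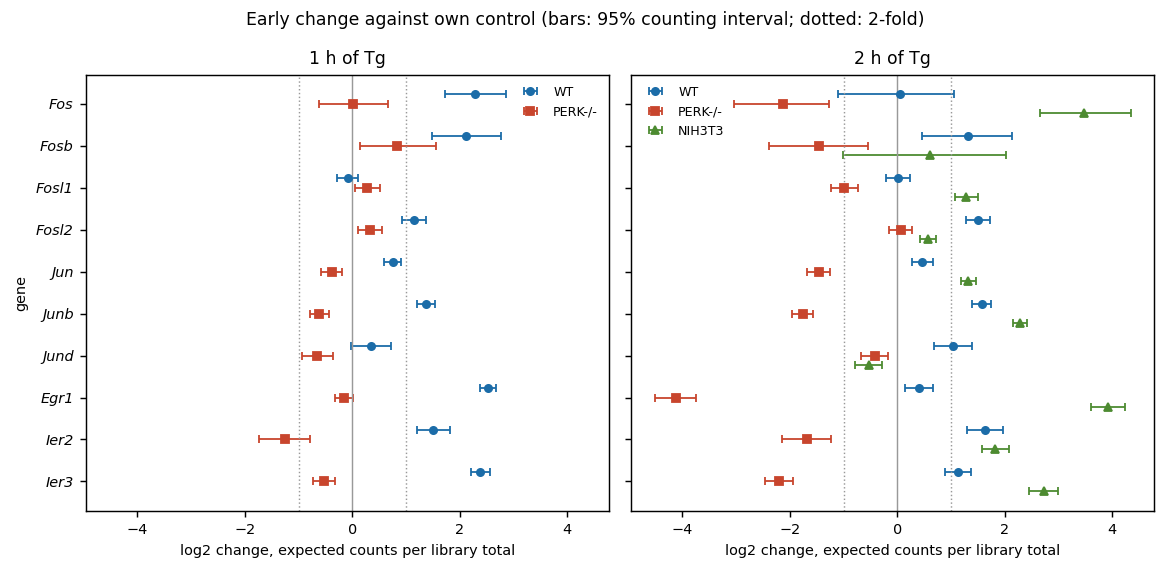
Log2 change of expected counts per library total against own control after 1 h (left) and 2 h (right), 1 point per gene and library, for WT (circles), PERK-/- (squares) and, after 2 h, NIH3T3 cells (triangles). Bars are 95% counting intervals and dotted lines mark 2-fold. At 2 h the WT interval lies above the PERK-/- interval for each gene, as in Ier2 (1.30 to 1.96 against -2.15 to -1.23).

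The genotypes were also compared at each time. In the controls 1 member, Fosl1, was at least 2-fold lower in PERK-/- than in WT MEFs (1.97% of expressed genes were) and none was higher (6.04%). Junb, Jund, Egr1 and Ier3 were 1.5, 1.72, 1.56 and 1.54 times higher there in PERK-/- MEFs, with count intervals above 0. Under Tg 6 members were 2-fold lower in PERK-/- after 1 h (5.34%), 8 after 2 h (9.96%), 7 after 5 h (7.48%) and 3 after 8 h (5.62%). None was 2-fold higher at those times (3.49%, 6.36%, 8.54% and 10.1%). The median log2 difference between PERK-/- and WT MEFs was 0.22 in the controls, -1.46 after 1 h, -2.26 after 2 h, -1.34 after 5 h and -0.66 after 8 h, and medians over all expressed genes lay between -0.01 and 0.09.

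With the floor the widest gap was that of Ier2 after 2 h, 80.3 TPM in WT against 7.11 in PERK-/-, or 11.3-fold (log2 of counts -3.43, -3.88 to -3.00). Egr1 after 2 h was 9.87-fold apart with the floor, and its log2 difference of counts was the wider (-3.89, -4.32 to -3.46). Junb was then 7.02-fold apart, Ier3 6.85-fold, Jun 5.12-fold and Fosl1 4.50-fold. Jund was never 2-fold apart, with its largest gap of 1.72-fold both in the controls, where PERK-/- was higher, and after 2 h, where WT was. By 8 h Ier3 had closed to 1.10-fold and Egr1 to 1.54-fold, while Fosl1 (4.64-fold), Ier2 (4.38-fold) and Junb (3.93-fold) had not.

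Fibroblast markers also moved in these libraries. Of the 10, none was 2-fold down in WT at any time (2.29%, 4.01%, 3.55% and 3.87% of expressed genes were). In PERK-/- 3 were down after 1 h (3.38%), 6 after 2 h (5.78%), 3 after 5 h (4.77%) and 2 after 8 h (2.73%). Among them were Fn1, Col1a1 and Col5a1, which encode secreted matrix proteins. In NIH3T3 cells 1 of 9 expressed markers was down after 2 h (3.76%) and 4 after 7 h (8.06%). The median log2 change of the markers after 1 and 2 h was -0.48 and -0.37 in WT and -0.87 and -1.36 in PERK-/- MEFs. In NIH3T3 cells it was -0.72 after 2 h and -0.85 after 7 h. The part of this shift in the members' values was not tested.

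**Figure D4:**
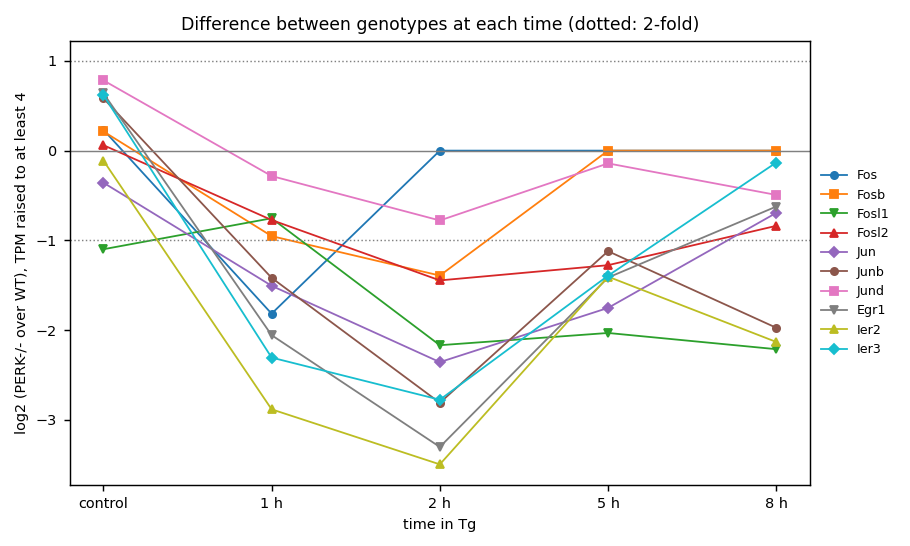
Log2 ratio of PERK-/- over WT for each gene in the controls and at each time in Tg, with TPM raised to at least 4 and dotted lines at 2-fold. The lines start between -1.10 (Fosl1) and 0.78 (Jund), reach their lowest values mostly after 2 h (Ier2 -3.50, Egr1 -3.30), and lie at 0 where both values were under 4 TPM (Fos at 2, 5 and 8 h and Fosb at 5 and 8 h).

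NIH3T3 cells, with intact PERK, were given a lower dose and other late times than the MEFs, so the values stand beside each other with no comparison of size. At 2 h 7 of 9 expressed members were at least 2-fold up (5.76% of expressed genes were) and none down (3.76%), and after 7 h 6 were up (7.01%) and none down (8.06%). The median log2 change of the members was 1.71 after 2 h and 1.37 after 7 h, against -0.13 and 0 over expressed genes. Their sum went from 508 TPM in the control to 1306.5 after 2 h and 1183 after 7 h.

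Egr1 had 5.39 TPM in the control, 74.9 after 2 h and 23.5 after 7 h. It was 13.9-fold up after 2 h (log2 of counts 3.92, 3.60 to 4.24), rank 4 of 10117 expressed genes, and 4.35-fold after 7 h. Ier3 had 35.9, 218 and 107 TPM, which is 6.07-fold and 2.97-fold up. Both were highest after 2 h and still above the control after 7 h.

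Junb had 69.8, 313 and 255 TPM in NIH3T3 cells, 4.49-fold up after 2 h (log2 of counts 2.29, 2.15 to 2.42) and 3.65-fold after 7 h, and held the highest TPM of the members in both Tg libraries. Ier2 had 37.3, 122 and 96.6 TPM, 3.26-fold and 2.59-fold up. Jun had 96.2, 221 and 164 TPM, 2.30-fold up after 2 h and 1.70-fold after 7 h. Fos went from 1.30 TPM on 18 counts to 13.3 and 10.2 TPM, with log2 changes of counts of 3.47 (2.65 to 4.34) and 2.97 (2.21 to 3.80). Fos was thus above its control at both times in these cells, while in WT MEFs it was below it at 5 and 8 h.

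Fosl1 had 52.2, 117 and 182 TPM, 2.24-fold up after 2 h and 3.49-fold after 7 h, beside 1.00-fold after 2 h and 1.96-fold down after 5 h in WT MEFs. Fosl2 had 125, 171 and 245 TPM and stayed just under the limit after 7 h (1.96-fold). Jund, with 83.4, 53.0 and 99.8 TPM, was the only member lower than its control after 2 h (1.57-fold, log2 of counts -0.53, -0.79 to -0.28). Fosb had 1.44, 2.92 and 0.94 TPM on 17, 6 and 4 counts, too few for a direction.

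**Figure D5:**
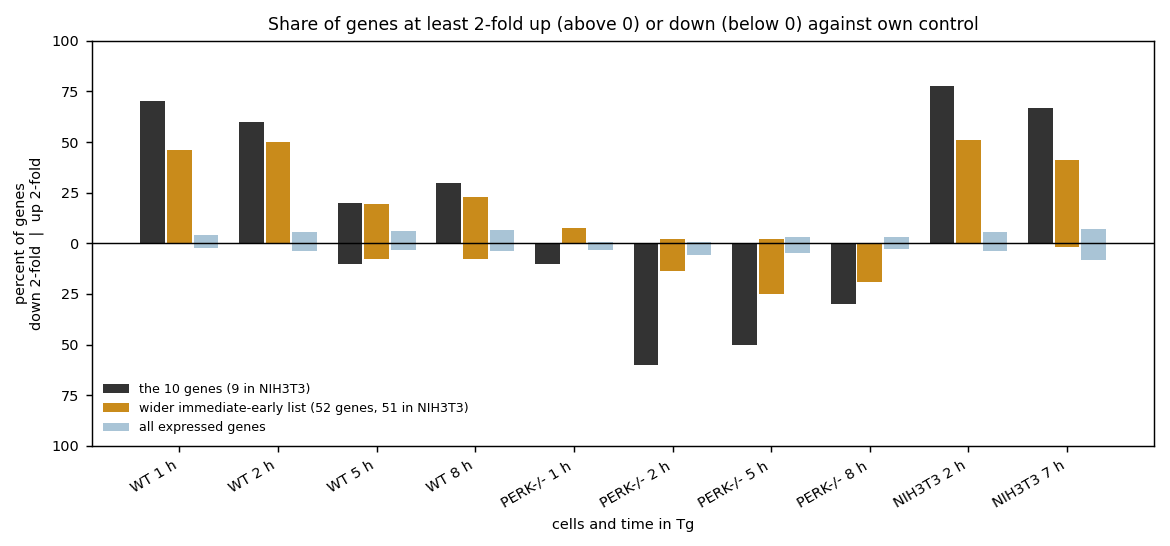
Percent of genes at least 2-fold up (above 0) or down (below 0) against own control in each Tg library, for the 10 genes (dark), the wider immediate-early list (ochre) and all expressed genes (pale blue). The dark bars point up in WT at 1 and 2 h (7 and 6 of 10) and in NIH3T3 cells (7 and 6 of 9) and down in PERK-/- MEFs (6 of 10 after 2 h).

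A wider list of 57 other immediate-early genes (52 expressed in MEFs, 51 in NIH3T3 cells) is given beside the members. In WT MEFs 24 were at least 2-fold up after 1 h (46.2% against 4.33% of expressed genes) and 26 after 2 h (50% against 5.66%). None was down at these times (2.29% and 4.01% of expressed genes were), and the median log2 changes were 0.92 and 0.97. Later 10 and 12 were up at 5 and 8 h (19.2% and 23.1% against 5.86% and 6.45%). At both of these times 4 were down (7.69% against 3.55% and 3.87%). With 100 counts or more in both libraries, the largest were Klf10, a zinc finger factor of the TGF-beta response (10.1-fold after 2 h, from 13.7 to 139 TPM), Gadd45b, a growth arrest gene (5.51-fold after 2 h), and Dusp1, a phosphatase of MAP kinases (4.82-fold after 1 h). Hbegf, a ligand of the EGF receptor (4.46-fold), and Errfi1, an inhibitor of that receptor (2.91-fold), were down after 5 h, and Dusp5, a phosphatase of ERK, after 8 h (3.38-fold).

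In PERK-/- MEFs 4 of the 52 genes were up after 1 h (7.69% against 0.719% of expressed genes) and none down (3.38%). Ptgs2, which encodes a prostaglandin synthase, was 2.58-fold up (from 239 to 617 TPM). From 2 h on the list had 7, 13 and 10 genes down (13.5%, 25% and 19.2% against 5.78%, 4.77% and 2.73%). Those up were 1, 1 and 0 (1.92%, 1.92% and 0% against 0.623%, 3.26% and 3.28%). Hbegf was 5.75-fold down after 8 h, Ctgf, a matrix-associated protein, 3.73-fold after 8 h, and Zfp36l2, an mRNA decay factor, 3.07-fold after 5 h, while Dusp1 was 2.12-fold up after 5 h. In NIH3T3 cells 26 of 51 were up after 2 h (5.76% of expressed genes were) and none down (3.76%). After 7 h 21 were up (7.01%) and 1 down (8.06%). The median log2 changes of the list were 1.01 and 0.55. The genes up after 2 h were led by Id1, an inhibitor of differentiation factors (7.12-fold), Gadd45g (6.83-fold) and Klf10 (6.33-fold).

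Upstream of the members, the 31 expressed genes of a list of 32 MAP kinases, RAS and RAF proteins, SRF and its cofactors had none 2-fold up in WT at any time. Of expressed genes 4.33%, 5.66%, 5.86% and 6.45% were up there. In WT 1 of the list was down after 8 h, which is 3.23% of the list against 3.87% of expressed genes: Map2k4, a kinase of the JNK pathway (2.12-fold). In PERK-/- 1 was down after 2 h (3.23% against 5.78%), Mapk7, or ERK5 (2.12-fold). After 5 h 1 gene was up (3.23% against 3.26%) and 1 down (3.23% against 4.77%), Srf being the gene down. Of 29 in NIH3T3 cells 1 was down after 2 h (3.45% against 3.76%) and 5 after 7 h (17.2% against 8.06%). Among the 5 were Srf (from 19.2 to 5.42 TPM), Map2k2 (2.51-fold) and Mapk3 (2.10-fold). Footprints do not measure the phosphorylation through which these kinases act. Of the other AP-1 partners and EGR corepressors, 10 were expressed in MEFs and at most 1 was 2-fold away from its control in any MEF library. Each such gene was up, at 10% of the list against 0.719% to 6.45% of expressed genes in the same libraries. In NIH3T3 cells 7 were expressed. There 1 was up after 2 h (14.3% against 5.76%) and none down (3.76%). After 7 h 1 was up (14.3% against 7.01%) and 1 down (14.3% against 8.06%).

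Genes linked to AP-1 in fibroblasts (31 listed, 27 expressed in MEFs) were called in both directions in WT MEFs. There 2 were up and 1 down after 1 h, 3 and 3 after 2 h, 2 and 5 after 5 h, and 2 and 6 after 8 h. The shares up were 7.41%, 11.1%, 7.41% and 7.41%, beside 4.33%, 5.66%, 5.86% and 6.45% of expressed genes, and the shares down 3.70%, 11.1%, 18.5% and 22.2%, beside 2.29%, 4.01%, 3.55% and 3.87%. Hmox1, the heme oxygenase, was 6.07-fold up after 8 h and Vegfa, the vascular growth factor, 3.55-fold after 2 h. By counts the Vegfa change was smaller (log2 1.40, 1.16 to 1.64) than by TPM (log2 1.83). Hmga2, a chromatin protein, was 7.37-fold down after 5 h, Ccnd1, which encodes cyclin D1, 3.44-fold after 5 h and Timp3, an inhibitor of matrix proteases, 3.44-fold after 8 h. In PERK-/- 1, 0, 0 and 0 were up (3.70%, 0%, 0% and 0% against 0.719%, 0.623%, 3.26% and 3.28%). Those down were 0, 1, 4 and 6 (0%, 3.70%, 14.8% and 22.2% against 3.38%, 5.78%, 4.77% and 2.73%). Hmga2 (4.04-fold) and Ccnd1 (2.93-fold) were down after 8 h. In NIH3T3 cells 2 of 24 were up after 2 h (8.33% against 5.76%) and none down (3.76% of expressed genes were). After 7 h 3 were up (12.5% against 7.01%) and 4 down (16.7% against 8.06%). Among these were Hmox1 (4.07-fold up) and Mmp14, a membrane matrix protease (2.66-fold down).

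Within the group, courses over the 10 Tg libraries were most alike for Jun and Ier3 (Pearson r = 0.98), Jun and Egr1 (0.96), Egr1 and Ier3 (0.95) and Junb and Ier2 (0.94). Jund stood apart, from -0.28 with Fosl1 to 0.59 with Fosl2. Outside the group, of 4979 genes compared, Junb was closest to Ier5, another immediate-early gene (0.98), Egr1 to Dusp6, the ERK phosphatase (0.96), and to Klf6 (0.95), Fosl2 to Itpripl2 (0.97), Fosl1 to Zfp26 (0.96), Jun to Frmd4a (0.95), Ier3 to Zfp593 (0.94), Ier2 to Dzip1l (0.98) and Jund to Ibtk (0.98). For Fos the highest value was 0.92, with Pear1. The points share controls within each kind of cell, and the values are descriptions.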

How the data were processed

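Footprints of 22 to 34 nt were sequenced from 13 samples, 1 library per condition. The authors removed rRNA and tRNA reads with STAR, aligned the rest with Bowtie2 to mm10 RefSeq coding sequences from which both ends (30 nt) were cut and short transcripts (under 100 nt) dropped, and ran RSEM. The deposited expected counts are whole numbers per gene, not scaled between libraries. The TPM values that the authors deposited are RSEM shares of each library per clipped coding length. Tool versions are not given in the sources used here.

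The change rule (mean TPM of at least 2, TPM raised to at least 4, 2-fold against own control) follows the study. Counts per library total gave exact conditional 95% intervals, and levels exact Poisson intervals, which cover counting error only, as footprints carry no molecular identifiers. The limit that a count of 0 allows, 3 counts, stood for 0.203 to 1.19 CPM. No test between conditions was made. Scripts were tested on simulated data.

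The members and lists were chosen with earlier results of these data known. Named were all members, Eif2ak3 and, of each other list, up to 3 genes up and 3 down per kind of cell with the largest change and at least 100 counts in both libraries. A gene that this rule picks is not reported here. Likeness used genes with at least 20 counts in every library and a log2 range of at least 1. Srf, Fn1, Col1a1 and Col5a1 were named after their values were seen.

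Tried as alternatives were no filter, a 1 TPM floor, a pseudocount of 1, a 5 TPM limit on the mean, CPM, TMM and DESeq2 factors, counts thinned to the smallest library, removal of a lowess trend (fraction 0.3) on coding GC, and 3-fold and 1.5-fold limits. Gene models came from GENCODE M21 (GRCm38, the assembly of mm10), and 96.1% of the expressed MEF genes had a coding sequence. Software: R 4.3.3, edgeR 4.0.16 (factors), DESeq2 1.42.0 (factors), Python 3.11.15, scipy 1.17.1, numpy 2.4.6, matplotlib 3.10.9, pandas 2.3.3 and statsmodels 0.14.6.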

Additional observations from a re-analysis of the deposited data

Results flagged for a closer look

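In 3 members every Tg library of WT MEFs was above its control and every Tg library of PERK-/- MEFs below its own. How many of all expressed genes did the same was not counted, so the pattern is not given as a trait of the members. The difference was not tested, as each condition was 1 library and the 4 libraries of a genotype share a control. Junb had a median log2 change of 1.07 in WT (0.61 to 1.56) and -1.43 in PERK-/- MEFs (-1.83 to -0.65), a gap of 2.5. For Ier2 the medians were 1.30 (1.05 to 1.63) and -1.10 (-1.76 to -0.25), a gap of 2.40. For Ier3 they were 0.70 (0.25 to 2.37) and -1.16 (-2.27 to -0.48), a gap of 1.86. With the GC trend removed, the WT changes of Ier3 at 5 and 8 h were -0.13 and -0.17, so that Ier3 no longer had opposite signs in every library.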

How the results depend on the processing

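No paired analysis was possible because each condition was 1 library, and for the same reason no replicate could be left out. Of 47 calls of single members, 47 were kept with a floor of 1 TPM, 46 with a pseudocount, 46 with CPM, 43 each with TMM factors, DESeq2 factors and thinned counts, and 37 with the GC trend removed, and none turned. The median of the members stayed within -0.21 to 0.43 in WT after 5 h and -0.25 to 0.53 after 8 h, so its sign there depends on the setting, while in WT at 1 and 2 h (lowest 1.19 and 0.66), in NIH3T3 cells (lowest 1.45 and 1.32) and in PERK-/- MEFs at all times (highest -0.01) it kept its sign. Scaling moved the median of all genes by at most 0.13 (NIH3T3 after 2 h, DESeq2 factors).

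Counts of members that moved by over 1.5 times are given by setting. The shares of expressed genes stand beside them for the 3-fold and 1.5-fold limits only, so the other counts have no background here. With a floor of 1 TPM, 2 were down in WT after 5 h, 1 in WT after 8 h and 5 in PERK-/- after 8 h, and 1 was higher in PERK-/- than in WT after 5 h, and with a pseudocount 2 and 5 were down in WT after 5 h and PERK-/- after 8 h. These were Fos and Fosb, whose falls the floor of 4 hides. TMM factors gave 1 up and 2 down in WT after 5 h and 1 down after 8 h, DESeq2 factors 1 up and 2 down after 5 h and 2 down after 8 h, and thinned counts 1 down after 8 h. With the GC trend removed, 0 were up and 2 down in WT after 5 h and after 8 h, and 0 down in PERK-/- after 1 h. The largest shift was 0.69, of Jund in WT after 8 h. A 3-fold limit left 4 up in WT after 1 h, 1 after 2 h, 0 after 5 h and 1 after 8 h, 0 down in WT after 5 h and in PERK-/- after 1 h, and 3 up in NIH3T3 cells after 7 h. At 3-fold 1.07%, 1.43%, 1.53% and 1.61% of expressed genes were up in WT and 2.01% in NIH3T3 cells after 7 h. Down at 3-fold were 0.613% in WT after 5 h and 0.498% in PERK-/- after 1 h. A 1.5-fold limit gave 4 up and 2 down in WT after 5 h, 2 down after 8 h, 1 up and 3 down in PERK-/- after 1 h, 5 down after 8 h, and 1 down in NIH3T3 cells after 2 h. At 1.5-fold 16.7% of expressed genes were up and 11.6% down in WT after 5 h, 12.01% down after 8 h, 3.78% up and 13.4% down in PERK-/- after 1 h, 8.24% down after 8 h, and 18.2% down in NIH3T3 cells after 2 h. Depth limits Fos and Fosb most, with 2 to 73 counts a library.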
